A study of Mus musculus with 4 samples.

Results

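Adenosine acts on cells through 4 receptors, encoded in the mouse by Adora1, Adora2a, Adora2b and Adora3, and these genes were examined together with Tmigd3, an immunoglobulin-domain gene that shares its locus with Adora3. The 5 genes were chosen by name, each matched 1 entry of the deposited tables, and they are 5 of 54532 genes in all. RNA had been sequenced from PMN-MDSC (polymorphonuclear myeloid-derived suppressor cells), which resemble neutrophils and dampen T cell responses, isolated from the spleens of newborn C57BL/6 mice. The cells had been kept for 5 days with NECA (N-ethylcarboxamidoadenosine, a synthetic agonist at adenosine receptors) or with the solvent DMSO, with 2 libraries in each group and 300000 cells lysed for each condition. The sources used here give no dose of NECA. They also leave unsaid whether libraries within a group stem from different animals or cultures, so p-values reflect nothing beyond the spread among these 4 samples, which may be technical.

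The receptors all span the membrane as G protein-coupled receptors and differ in the G protein they engage. The receptors made from Adora2a and Adora2b act through Gs and raise cyclic AMP, whereas those made from Adora1 and Adora3 act through Gi and lower it. In neutrophils and macrophages, signalling through the Gs-coupled pair is known for restraining inflammatory responses and through the Gi-coupled pair for promoting chemotaxis, and the Adora2b receptor is known for needing much more adenosine than the others.

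Library depth ran from 15864120 to 18712625 reads. CPM is the count per 1000000 reads of a library, so that a gene at 1 CPM rested on fewer than 20 reads. The label was checked against 15 markers of neutrophils, such as Ly6g and S100a8. All 15 were tested, and together they held 124669 and 130281 CPM in the DMSO libraries against 138746 and 139628 CPM in the NECA libraries. By edgeR's quasi-likelihood test, 2 of the 15 rose (Mmp8 and Mmp9, granule proteases) and 0 fell, with a median log2 fold change of 0.15; 0 rose without DMSO replicate 1 or with library size alone as the scale, 3 without DMSO replicate 2, 9 without NECA replicate 1, 6 without NECA replicate 2 and 6 by DESeq2. Among all 13083 genes entering that test, NECA gave 46 higher and 128 lower calls at adjusted p under 0.05. Higher calls were thus 26.4% of all calls, and 8.82% with library size alone as the scale, while DESeq2 gave 143 higher and 157 lower calls.

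The position of the genes decides which reads can be assigned to them. In GENCODE M21 on the build GRCm38, Adora3 (ENSMUSG00000000562) lies on chromosome 3 from 105870858 to 105908926 and Tmigd3 (ENSMUSG00000074344) from 105870903 to 105924042, both on the plus strand. Their exons coincide over 2 stretches, of 109 bases at chr3:105870903-105871011 and of 670 bases at chr3:105904483-105905152. The second stretch holds the start of the coding sequence of the transcript Adora3-201 and is also the first exon of the transcript Tmigd3-202, which is annotated as subject to nonsense-mediated decay. The shared 779 bases make up 20.9% of the 3729 exon bases of Adora3 and 33.9% of the 2296 exon bases of Tmigd3. The end of the shared coding exon is printed here because a read that crosses it can be told to come from Adora3-201 or from Tmigd3-202. Reads in exon bases that are not shared can be assigned without it. In each line the capitals mark the 30 coding bases common to both transcripts (chr3:105905123-105905152), and the lower-case letters are the 30 coding bases of the next exon, which starts at 105907289 in Adora3-201 and at 105914170 in Tmigd3-202.
Adora3-201: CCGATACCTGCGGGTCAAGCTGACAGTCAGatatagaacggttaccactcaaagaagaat
Tmigd3-202: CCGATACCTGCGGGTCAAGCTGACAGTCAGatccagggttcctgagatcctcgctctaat

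**Figure D1:**
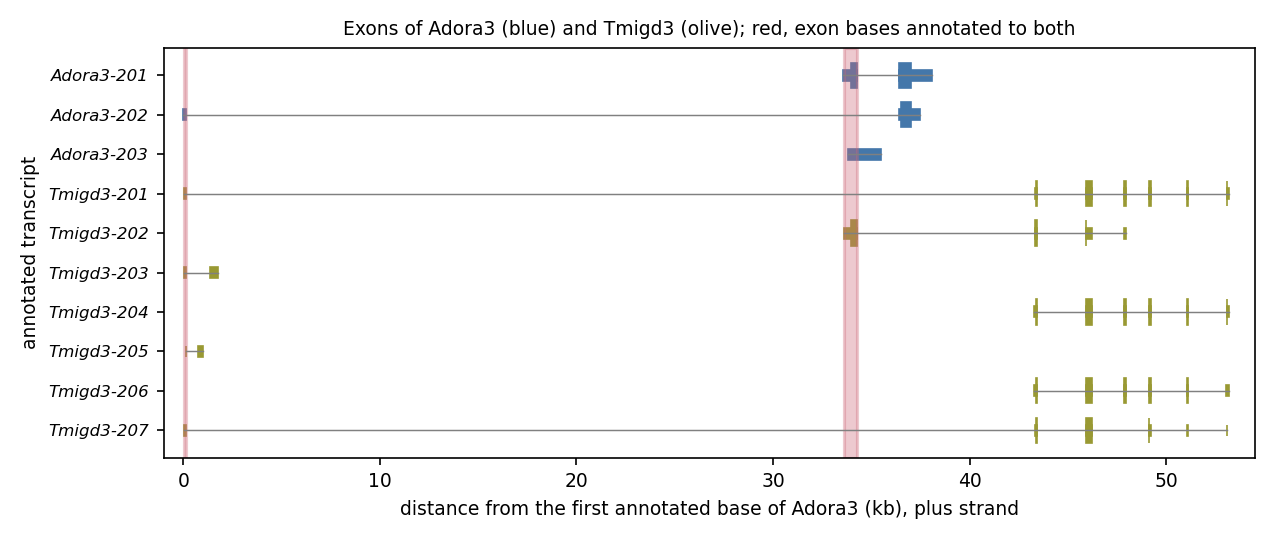
Annotated transcripts of Adora3 (3, blue) and Tmigd3 (7, olive), by distance in kb from the first annotated base of Adora3. Boxes are exons, tall boxes coding parts, thin lines introns, and the red bands the 109 and 670 exon bases annotated to both genes.

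A read within the shared bases fits both genes, and the sources used here do not say whether such reads were given to one gene, both or neither. Counts of Adora3 and Tmigd3 are therefore uncertain. Of all 50-base words in the transcripts of each gene, 18.6% of those of Adora3 were also found in Tmigd3 and 29.5% of those of Tmigd3 in Adora3, and no further gene shared more than 30 words with Adora3. The other receptors lie apart. Adora2a (ENSMUSG00000020178) is on chromosome 10 from 75316877 to 75334784, and Adora2b (ENSMUSG00000018500) is on chromosome 11 from 62248984 to 62266453, both on the plus strand. Their exons overlapped no exon of another annotated gene, and none of their 50-base words occurred in the transcripts of another gene. Adora1 (ENSMUSG00000042429) is on the minus strand of chromosome 1 from 134199223 to 134235431. Over 1162 of its 5785 exon bases (20.1%) it overlaps exons of Mybph, a muscle protein gene on the opposite strand, which had 41 and 79 reads with DMSO and 79 and 47 with NECA. The use of strand is likewise not stated, so reads of Adora1 and Mybph in that overlap cannot be told apart.

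Of the 4 receptors, Adora3 was the most abundant transcript in these cells, and none of the tested genes passed edgeR's test for a difference between NECA and DMSO. By reads per gene length (the deposited FPKM), its share of the summed receptor level was 74.2% and 77.9% with DMSO and 80.9% and 87.7% with NECA. Of the receptor reads themselves, not scaled to length, it took 79.3% and 83.2% with DMSO and 82.6% and 88.6% with NECA. Adora2a and Adora2b stood near 1 CPM or below, and Adora1 had at most 11 reads in a library. The lowest p-value belonged to Adora2b, which had 14 and 11 reads with DMSO and 3 and 1 with NECA.

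**Figure D2:**
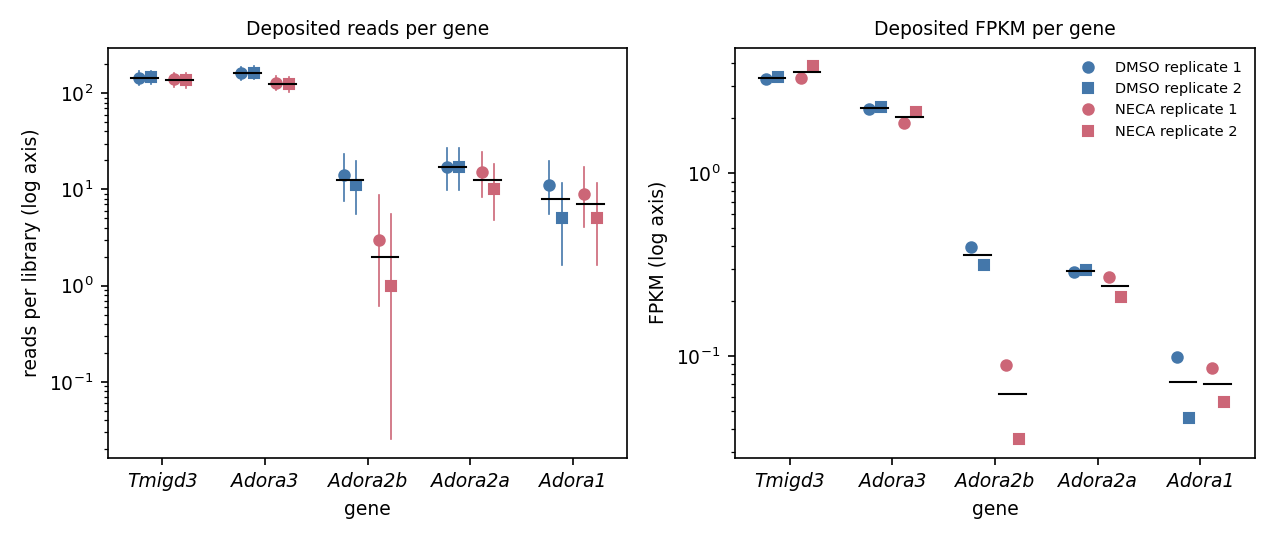
Reads per library (left) and deposited FPKM (right) of the 5 genes, on log axes, for 2 DMSO (blue) and 2 NECA (red) libraries. Points are libraries, black bars group means and, on the left, vertical lines exact 95% Poisson intervals. The reads of Adora2b are 14 and 11 with DMSO and 3 and 1 with NECA. For each other gene the group means lie closer together than for Adora2b. The replicates of Adora1 lie apart (11 and 5 reads with DMSO, 9 and 5 with NECA).

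The 4 tested genes (Adora2a, Adora2b, Adora3 and Tmigd3) passed the filter on low counts, and Adora1 did not. Of these 4, 0 were called higher and 0 lower by edgeR at adjusted p under 0.05, where 0.352% of all tested genes were called higher, 0.978% lower and 1.33% in either direction. At an unadjusted p under 0.05 edgeR gave 1 gene of the 4, Adora2b. DESeq2 called 0, gave 0 at an unadjusted p under 0.05 and set no adjusted p for 2 of them. Both NECA libraries lay below both DMSO libraries for 3 of the 4 (Adora2a, Adora2b and Adora3), an arrangement that 24.3% of all tested genes showed, and 0 of the 4 lay above, as 22.4% of all tested genes did. With 2 libraries against 2, the exact two-sided permutation test cannot give a p below 0.333, which was its value for Adora2a, Adora2b and Adora3; it gave 0.667 for Tmigd3 and 1 for Adora1.

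Among the Gs-coupled receptors, Adora2a, the receptor through which adenosine restrains most leukocytes, had 17 and 17 reads with DMSO and 15 and 10 with NECA. As CPM its level was 0.888 and 0.903 with DMSO and 0.824 and 0.646 with NECA. The NECA libraries were the lower ones, and the intervals of single counts, which cover counting error only, overlapped widely (9.90 to 27.2 reads around 17, and 4.80 to 18.4 around 10). The log2 fold change (NECA minus DMSO) was -0.28 (SE 0.57, 95% interval -1.52 to 0.97, adjusted p = 0.883 by edgeR's quasi-likelihood test). A difference of the size seen was not detectable at this depth, and the interval reaches far to both sides of 0.

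Adora2b, the low-affinity receptor of the pair, had 0.732 and 0.584 CPM in the DMSO libraries against 0.165 and 0.0646 CPM in the NECA libraries. The groups did not overlap. Summed over libraries there were 25 reads with DMSO and 4 with NECA, a ratio of 0.180 on the scaled library sizes, with an exact binomial 95% interval of 0.0456 to 0.522 that covers counting error only. The log2 fold change was -2.41 (SE 0.86, 95% interval -4.30 to -0.53, unadjusted p = 0.0164), and with adjusted p = 0.192 by edgeR's quasi-likelihood test it did not pass over all genes. Adora2b passed the filter on low counts only through the DMSO libraries, where it was high, so its entry into the test drew on the same difference. Of the 1559 tested genes with a mean under 1 CPM, 32.3% had both NECA libraries below both DMSO libraries. In that set 49 genes (3.14%) had a log2 fold change at or below that of Adora2b. With no filter the log2 fold change of Adora2b was -2.42 (adjusted p = 0.298 by edgeR). Leaving out NECA replicate 1 gave -3.21 and leaving out NECA replicate 2 gave -1.96, with adjusted p = 0.239 and 0.572 by edgeR, so the size of the difference rested on libraries with 3 and 1 reads.

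**Figure D3:**
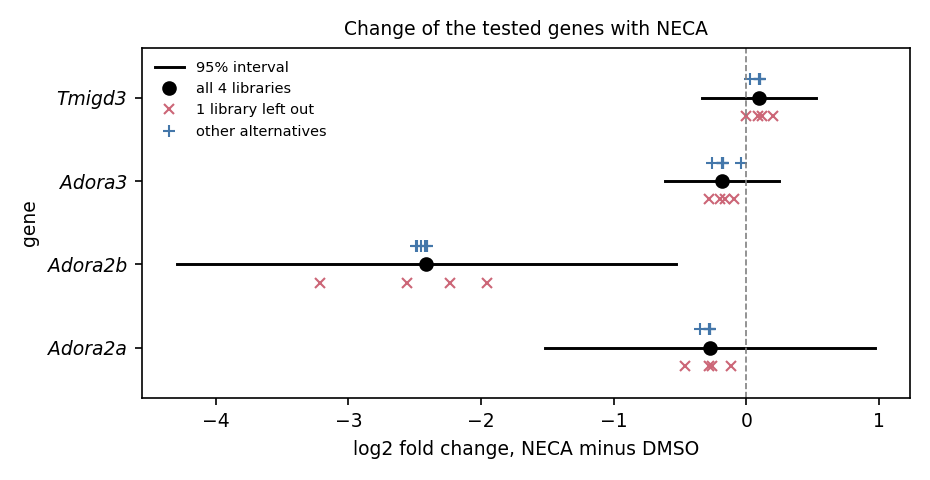
Log2 fold change (NECA minus DMSO) of the 4 tested genes with all libraries (black points, lines the unadjusted 95% intervals), with 1 library left out (red crosses) and under the other alternatives (blue plus signs). Adora2b lies at -2.41 with the widest interval, and the other 3 genes lie between -0.28 and 0.10 with intervals that include 0.

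Among the Gi-coupled receptors, Adora1 had 11 and 5 reads with DMSO and 9 and 5 with NECA, or 0.575, 0.266, 0.494 and 0.323 CPM. The groups overlapped, and the ratio of NECA to DMSO was 0.986 with an exact binomial 95% interval of 0.446 to 2.16. It was too low for the filter, and without a filter its log2 fold change was -0.03 (SE 0.95, adjusted p = 0.988 by edgeR).

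Adora3 had 161 and 163 reads with DMSO and 128 and 124 with NECA. As CPM it stood at 8.41 and 8.66 with DMSO (8.53 ± 0.173, SD, n = 2) and at 7.03 and 8.01 with NECA (7.52 ± 0.695, SD, n = 2). Both NECA libraries were the lower ones, by less than the SE of the fit: the log2 fold change was -0.18 (SE 0.20, 95% interval -0.61 to 0.24, adjusted p = 0.727 by edgeR's quasi-likelihood test). The interval does not reach a halving of Adora3. Leaving out NECA replicate 1 gave -0.09 and leaving out NECA replicate 2 gave -0.28, with no call in either case.

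Tmigd3, whose product is a membrane protein with an immunoglobulin domain, had 145 and 146 reads with DMSO and 139 and 136 with NECA, or 7.58, 7.75, 7.63 and 8.79 CPM. NECA replicate 1 lay between the DMSO libraries. The log2 fold change was 0.10 (SE 0.20, 95% interval -0.33 to 0.53, adjusted p = 0.881 by edgeR), and without NECA replicate 2 it was -0.0059. When the reads of Adora3 and Tmigd3 were added together, the locus had 306 and 309 reads with DMSO and 267 and 260 with NECA, and a log2 fold change of -0.04 (adjusted p = 0.929 by edgeR).

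Within the locus, Adora3 took 52.6% and 52.8% of the summed reads, not scaled to length, with DMSO and 47.9% and 47.7% with NECA. The replicates of each group lay within each other's exact binomial 95% intervals, which cover counting error only. These ran from 46.9% to 58.3% in DMSO replicate 1 and from 41.5% to 54.0% in NECA replicate 2. The intervals of the groups overlapped, and a shift between the genes was not tested.

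To order the genes by level, values per length were used. With DMSO the deposited FPKM was 3.33 ± 0.0530 for Tmigd3, 2.28 ± 0.0451 for Adora3, 0.355 ± 0.0564 for Adora2b, 0.292 ± 0.00322 for Adora2a and 0.0724 ± 0.0377 for Adora1 (SD, n = 2 each). With NECA it was 3.58 ± 0.360 for Tmigd3, 2.02 ± 0.189 for Adora3, 0.240 ± 0.0408 for Adora2a, 0.0708 ± 0.0209 for Adora1 and 0.0623 ± 0.0384 for Adora2b. Adora2b was thus behind Tmigd3 and Adora3 with DMSO and last with NECA, where its libraries (0.0894 and 0.0351) overlapped those of Adora1 (0.0855 and 0.0560). Among all genes with at least 1 read, 55.9% to 57.2% had a lower FPKM than Adora3 across the libraries and 25.2% to 29.6% a lower FPKM than Adora2a. For Adora2b the share was 32.7% and 28.8% with DMSO and 15.6% and 6.08% with NECA.

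The order per length depends on the length used. For at least 95.4% of genes with 50 or more reads the deposited FPKM used, within 1%, the sum of all annotated exon bases, which for Adora3 is 3729 bases where the receptor transcript Adora3-201 has 2370. Per length of the longest protein-coding transcript instead, a scale chosen after seeing the data, the FPKM with DMSO was 8.49 for Tmigd3, 3.59 for Adora3, 0.355 for Adora2b, 0.344 for Adora2a and 0.0843 for Adora1. On that scale the DMSO libraries of Adora2b (0.395 and 0.315) lay on both sides of those of Adora2a (0.341 and 0.347), so these neighbours did not differ beyond their spread. The steps from Tmigd3 to Adora3 and from Adora3 to the other receptors were larger than the spread between replicates on both scales. By reads not scaled to length, Adora3 was ahead of Tmigd3 with DMSO (161 and 163 against 145 and 146). With NECA it was behind (128 and 124 against 139 and 136). Reads in the exon bases that Adora3 and Tmigd3 share may belong to either gene, which the spread between replicates does not cover.

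RNA of other cell types moved between the groups, and macrophages are known to carry adenosine receptors. In bulk samples fewer cells of a type and less RNA per cell cannot be told apart. Of 20 macrophage markers, 17 fell by edgeR's test and 0 rose, with a median log2 fold change of -1.54 against -0.01 over all genes tested. Among them, Vcam1, an adhesion molecule, had 82.0 and 84.1 CPM in the DMSO libraries against 28.3 and 21.7 CPM in the NECA libraries, and Axl, a receptor for dying cells, had 77.0 and 70.3 against 28.6 and 23.8 CPM. C1qb and C1qc, which encode chains of complement C1q, fell by 1.73 and 1.81 on the log2 scale. Summed over the 20 markers the level was 839 and 723 CPM in the DMSO libraries against 376 and 299 CPM in the NECA libraries, and none of the markers was at 0 in every library. The count of lower markers was 11 without DMSO replicate 1.

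Adora2b and the summed macrophage markers were both lowest in NECA replicate 2. This was not particular to macrophage markers. The summed markers of B, T and NK cells were also lowest there (156 and 164 CPM with DMSO, 87.6 and 31.7 with NECA). So were those of mast cells, basophils and eosinophils (453 and 452, then 468 and 434). Relative to the DMSO mean, Adora2b stood at -2.00 and -3.35 on the log2 scale in NECA replicates 1 and 2 and the summed markers at -1.05 and -1.38. The median of the markers stood lower than their sum, at -1.47 and -1.70. Per 1000 CPM of summed macrophage markers, Adora2b had 0.872 and 0.808 CPM in the DMSO libraries against 0.438 and 0.216 CPM in the NECA libraries. Those NECA values rest on 3 and 1 reads of Adora2b. They also depend on Csf1r, the highest marker in the sum, which changed little (-0.35). Csf1r had 168 and 135 CPM with DMSO against 126 and 111 with NECA, so it weighed more in the NECA sums. The part of macrophage RNA in the values of Adora2b was not tested.

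**Figure D4:**
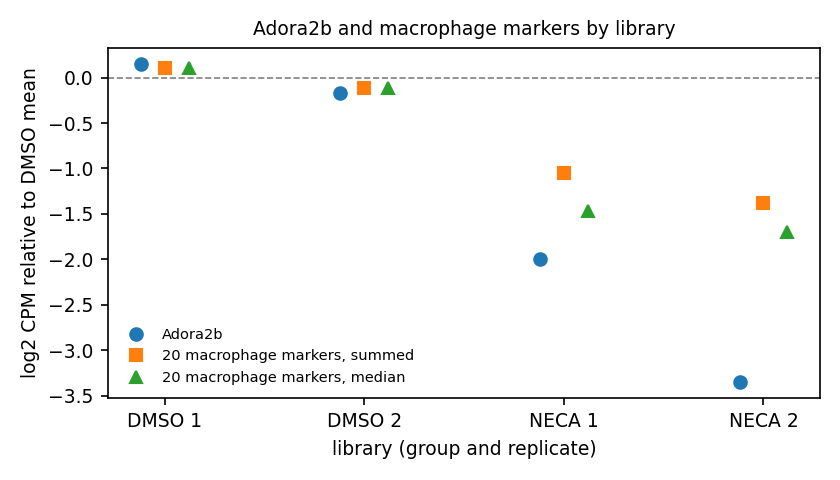
Log2 CPM relative to the DMSO mean of Adora2b (circles), of the sum of 20 macrophage markers (squares) and of their median (triangles) in each library. In both NECA libraries all 3 lie below 0, and Adora2b, at 3 and 1 reads, lies lowest.

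Markers of mast cells, basophils and eosinophils, which are known to carry the Adora3 receptor, summed to 453 and 452 CPM in the DMSO libraries against 468 and 434 CPM in the NECA libraries. Most of that sum came from Hdc, so it does not describe the other markers. Of the 17 tested markers, 14 had a log2 fold change below 0 and 3, Hdc among them, above. By edgeR's test 0 of 17 rose and 1 fell, the eotaxin receptor Ccr3 (5.49 and 5.52 against 1.70 and 1.42 CPM), which did not pass when DMSO replicate 1 or 2 was left out (adjusted p = 0.0925 and 0.0655), and the median was -0.46. Of that sum Hdc, the histamine-forming enzyme, gave 324 and 319 CPM in the DMSO libraries against 371 and 368 CPM in the NECA libraries (0.20, adjusted p = 0.0844 by edgeR), and it was the higher call of DESeq2 (adjusted p = 0.0254) and of edgeR with no filter (adjusted p = 0.0184). The mast cell proteases Mcpt4, Tpsb2 and Cma1 were high in both replicate 1 libraries and low or at 0 in both replicate 2 libraries. Other proteases of the list did not split this way with DMSO. Cpa3 had 64 and 58 reads with DMSO and 46 and 18 with NECA, and Tpsab1 had 0 and 0 against 2 and 0. Mcpt4 had 22 and 3 reads with DMSO and 24 and 0 with NECA, Tpsb2 had 24 and 3 against 21 and 0, and Cma1 had 11 and 4 against 13 and 0. Of the 20 markers 1 was at 0 in every library, the mast cell receptor Mrgprb2. Markers of B, T and NK cells summed to 156 and 164 CPM in the DMSO libraries against 87.6 and 31.7 CPM in the NECA libraries, with 1 of 13 lower (the B cell adaptor Blnk, not called when DMSO replicate 1 or 2 was left out, adjusted p = 0.114 and 0.217, nor by DESeq2, adjusted p = 0.30, or with its size factors, adjusted p = 0.0556), 0 higher and a median of -1.69. Without NECA replicate 1 the counts of lower genes were 5 and 9 in these 2 lists, and without NECA replicate 2 they were 4 and 8. The part of these cells in the values of Adora3, Tmigd3, Adora2a and Adora2b was not tested.

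The genes through which the receptors signal were largely present. Of 41 genes for G proteins, adenylyl cyclases, protein kinase A, the cyclic AMP sensors Rapgef3 and Rapgef4 and transcription factors of the CREB family with their coactivators, 33 were tested, 0 rose and 0 fell by edgeR's test, and the median log2 fold change was 0.04. Without NECA replicate 2, 1 of them was called higher. Gnai2 and Gnai3, the Gi subunits on which the Adora1 and Adora3 receptors rely, had 1714 and 1799 against 2007 and 1824 CPM and 323 and 326 against 367 and 367 CPM, with DMSO and NECA in turn. Gnas, which encodes the Gs subunit on which the Adora2a and Adora2b receptors rely, had 38.5 and 41.6 against 40.1 and 31.6 CPM, and Adcy7, an adenylyl cyclase, had 418 and 382 against 393 and 391 CPM. The lowest p-values of the list belonged to Prkacb, a catalytic subunit of protein kinase A (-0.31, adjusted p = 0.102), Gnai3 (0.18, adjusted p = 0.112), Prkar1b, a regulatory subunit (-2.54, adjusted p = 0.122), and Gng10, a G protein gamma subunit (2.30, adjusted p = 0.167). Prkar1b had 19 and 15 reads with DMSO and 3 and 2 with NECA, and Gng10 had 4 and 2 against 14 and 13. Both passed the filter on low counts only through the group where they were high, and their fold changes rest on these few reads. Prkacb passed when libraries were scaled by their size alone (-0.38, adjusted p = 0.0479 by edgeR).

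Of 26 genes that regulate the receptors or remove cyclic AMP (receptor kinases, arrestins, RGS proteins, phosphodiesterases and binding partners), 22 were tested, 1 rose and 0 fell. The higher gene was Actn1, an actin cross-linker, at 818 and 850 CPM in the DMSO libraries against 1012 and 958 CPM in the NECA libraries (0.24, SE 0.05, adjusted p = 0.0352), which did not pass without DMSO replicate 1 or DMSO replicate 2 (adjusted p = 0.170 and 0.0861) or with library size alone as the scale (adjusted p = 0.103). The phosphodiesterases Pde7a (-0.64, adjusted p = 0.102) and Pde4b (-0.26, adjusted p = 0.254) and the receptor kinase Grk3 (-0.42, adjusted p = 0.265) followed. Without NECA replicate 1, Pde7a and Grk3 passed (adjusted p = 0.00662 and 0.00282), and with no filter on low counts Pde7a did (adjusted p = 0.0183).

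Of 23 tested genes that make, carry or break down adenosine, 0 rose and 0 fell, with a median of -0.02. The ectoenzyme Entpd3 had 4.08 and 5.79 CPM in the DMSO libraries against 8.90 and 8.85 CPM in the NECA libraries (adjusted p = 0.0962). Cd38 (-0.74, adjusted p = 0.114) and Bst1 (0.24, adjusted p = 0.151), which consume NAD, and Slc29a1, a nucleoside transporter (-0.64, adjusted p = 0.216), came next. Without NECA replicate 1, Cd38 and Bst1 passed (adjusted p = 0.0249 and 0.0104), as did Entpd3, Cd38 and Bst1 with no filter on low counts (adjusted p = 0.0144, 0.0399 and 0.0112). Nt5e, the enzyme that releases adenosine from AMP outside the cell, had 122 and 117 CPM in the DMSO libraries against 134 and 128 CPM in the NECA libraries (0.14, adjusted p = 0.336).

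Of 24 genes listed as responsive to cyclic AMP, a list chosen with earlier results of these data known, 19 were tested. By edgeR's test 0 rose and 5 fell, where 0.352% of all tested genes were called higher and 0.978% lower, and the median log2 fold change was -0.31 against -0.01 over all genes tested. In the same libraries 17 of the 20 macrophage markers were lower, with a median of -1.54, and their part in these values was not tested. The lower genes were Fos, Fosb and Egr1, immediate-early transcription factors, Dusp1, a phosphatase of MAP kinases, and Thbs1, a secreted thrombospondin. Fos had 115 and 142 CPM in the DMSO libraries against 80.3 and 74.1 CPM in the NECA libraries (-0.73, SE 0.10, adjusted p = 0.00359), and Egr1 had 15.3 and 35.5 against 6.65 and 5.30 CPM (-2.08, SE 0.32, adjusted p = 0.00978). The DMSO libraries of Egr1 differed by more than the NECA libraries did, and its log2 fold change was -1.34 (adjusted p = 0.0297) with DMSO replicate 2 left out and -2.56 with DMSO replicate 1 left out. Dusp1 (-0.38, adjusted p = 0.0372) did not pass without DMSO replicate 1 or DMSO replicate 2 (adjusted p = 0.115 and 0.180), nor did Thbs1 without DMSO replicate 2 (adjusted p = 0.0696). When DMSO replicate 2 was left out 2 genes were lower, and when NECA replicate 1 was left out 8 were. Sik1, a kinase gene that cyclic AMP induces, had 94.6 and 109 CPM with DMSO, against 82.3 and 80.3 with NECA (adjusted p = 0.0725). For Nr4a1, a nuclear receptor gene, the levels were 36.5 and 33.9 against 35.1 and 24.4 CPM (adjusted p = 0.470).

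Genes with the most similar pattern were found by the root mean square difference, over the 4 libraries, of centred log2(CPM + 0.5) values, among 10146 candidates for Adora2b and 10145 for Adora3 (tested, mean level 1 CPM or more). For Adora2b they were Inf2, Marc2, Slc8a1, Nr2c1 and Pltp, at distances of 0.0486 to 0.0594. Inf2, a formin, had 6.58 and 5.84 CPM in the DMSO libraries against 3.57 and 2.65 CPM in the NECA libraries. The log2 fold changes of the 5 ran from -0.91 to -1.22, less than that of Adora2b, because the pseudocount of 0.5 shrinks values as low as those of Adora2b. For Adora3 they included Znrd1, Arl5b, Cenph and Pik3c2a, at distances of 0.00873 to 0.0215, and their log2 fold changes ran from -0.14 to -0.19. With 4 libraries many genes share such a pattern, and the likeness describes these libraries only.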

How the data were processed

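The table deposited for each library gives, per Ensembl gene, a read count in whole numbers, not normalized, and an FPKM (the count scaled to depth and gene length by the authors), per the file headers. The submitters' processing notes name HISAT, StringTie and edgeR without versions, and mm10 with GRCm38 as builds. How reads were counted, from which annotation release, with which strand setting and with what rule for reads fitting several genes is not given in the sources used here.

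The deposited counts were analysed in R 4.3.3 with edgeR 4.0.16: filterByExpr (minimum count 10), TMM scaling, the quasi-likelihood test of NECA against DMSO without a replicate block (2 residual degrees of freedom) and Benjamini-Hochberg adjustment across the 13083 genes that entered it (threshold 0.05). The SE of a log2 fold change is its size divided by the square root of F, and its 95% interval, unadjusted, uses the t distribution. CPM is on TMM-scaled library sizes. Intervals of counts and shares are exact (Poisson, Clopper-Pearson). Symbols turned into dates (27) were restored from their Ensembl identifiers.

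The members and lists were chosen with earlier results of these data known. Named were the 5 genes, from every list at most 4 genes, by lowest p-value, and the 5 genes most like Adora2b and Adora3 in pattern. Other named genes (among them Gnai2, Gnas, Adcy7, Nt5e, Fosb, Sik1, Nr4a1, Ly6g, S100a8, Csf1r, Mcpt4, Tpsb2, Cma1, Cpa3, Tpsab1 and Mrgprb2) were chosen after their values were seen. Of the 5 genes most like Adora3, 1 is not reported here. Replicate libraries differed beyond sampling noise (chi-square divided by its degrees of freedom: DMSO 6.78, NECA 5.38). Alternatives were DESeq2 1.42.0, its size factors, library size alone, other filters, a replicate block, leaving out each library, summing Adora3 and Tmigd3, and other per-length scales.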

Additional observations from a re-analysis of the deposited data

How the results depend on the processing

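Adora2a, Adora2b and Adora3 kept their direction and stayed uncalled under every alternative run, with log2 fold changes from -0.47 to -0.12, from -3.21 to -1.96 and from -0.28 to -0.04. Adjusted p for Adora2b ran from 0.186 to 0.572 where one was given; DESeq2 gave none. Tmigd3 was uncalled throughout and ran from -0.0059, without NECA replicate 2, to 0.20; the cause of the change of sign was not tested. On library size alone or deposited FPKM the ratios of group means moved by less than the spread between replicates for all 5 genes. Across 8560 genes the deviations of same-numbered libraries were close to uncorrelated (r = 0.05), and the numbers were not taken as pairs. That set leaves out genes as low as the mast cell proteases. Mcpt4, Tpsb2 and Cma1, picked after their values were seen, did deviate together. They were high in both replicate 1 libraries and low or at 0 in both replicate 2 libraries. The protease Cpa3 did not split this way with DMSO (64 and 58 reads). Whether same-numbered libraries share a source was not tested. With the replicate block Adora2b stood at -2.45 (adjusted p = 0.191 by edgeR). Over all genes 123 were then higher and 298 lower, against 46 and 128 without the block, and 8 of 13 lymphocyte markers were lower.

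Over all genes, counts higher and lower were 21 and 217 with library size alone and 285 and 590 with no filter, and 143 and 157 with DESeq2. They ran from 8 to 227 higher and from 45 to 594 lower when 1 library was left out (leaving out DMSO replicate 1 gave 8 and 45, DMSO replicate 2 gave 34 and 60, NECA replicate 1 gave 227 and 594, and NECA replicate 2 gave 114 and 198). Depth limits Adora1, Adora2a and Adora2b, with 1 to 17 reads a library.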
